A study of Homo sapiens with 48 samples.

Results

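Type I interferon-stimulated genes are the antiviral and signalling genes that cells transcribe when type I interferon reaches its receptor. The 42 genes described here were taken from a list of such genes by symbol, with no threshold on measured values, and each has 1 row among the 37706 genes of the deposited count table. All 42 had enough reads to be tested, among 17749 genes tested in all. They comprise 4 sensors of foreign nucleic acid, 3 transcription factors, 4 genes of the OAS family, 2 of the MX family, 4 of the IFIT family, 4 membrane restriction factors, 4 genes of the ISG15 system, 5 genes named IFI, 3 of the PARP and DTX3L group and 9 other effectors.

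The cells were the lines Oci-Ly7 and Oci-Ly8, SUDHL6, and Oci-Ly18, all established human lines labelled GCB-DLBCL, a lymphoma with features of germinal centre B cells. Every line received, for 6 days, DMSO as vehicle; EPZ-5676, which inhibits the histone methyltransferase DOT1L (DOT1Li, also spelled EZP-5676 in the labels); GSK343, which inhibits EZH2, the catalytic subunit of Polycomb repressive complex 2 (EZH2i); or EPZ-5676 and GSK343 together (the combination, named Combo in the plots). Each of these 16 groups has 3 RNA-seq libraries, 48 in all, and the series asks how both inhibitors, alone and together, change B cell identity. The labels name no interferon among the additions and give no doses, all groups of a line share that line's genome, and each line stands for 1 tumour. They do not say that replicates were separate cultures, so p-values measure the spread between libraries only, and in bulk RNA fewer cells that express a gene and less RNA per cell cannot be told apart.

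As background, type I interferons bind the receptor chains IFNAR1 and IFNAR2, whose kinases JAK1 and TYK2 phosphorylate STAT2. With IRF9 it forms part of the complex ISGF3, which binds a short DNA element, the interferon-stimulated response element, upstream of many interferon-stimulated genes. Several of the genes listed here act back on the pathway: IFIH1 senses double-stranded RNA, IRF7 drives further interferon transcription, and USP18 damps the receptor.

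The core of that element, GAAA followed by any 2 bases and GAAA, or its complement (TTTC, any 2 bases, TTTC), was searched on both strands in promoters from RefSeq (GRCh38.p14), each 300 bases long with 250 before the start and 50 after. Of the 42 genes 33 had 1 or more promoters there, and 24 of these (72.7%) held the core, against 4.38% of the 27305 genes in the table and 3.57% of its 35116 promoters. The letters were found in no promoter given for IFI16, STAT2, IRF9, OAS1, HERC6, IFI35, CMPK2, XAF1 and SAMD9L. IFIT2, MX2, DHX58, IRF7, OAS2, IFITM2, OASL, USP18 and TRIM22 were not matched. The last 180 bases before the start are shown for 6 genes on which the results below turn, 5′ to 3′ on the gene's strand, with the core in capitals. IFI44L, IFIT1, OAS3 and HERC5 rose in Oci-Ly8 and fell in Oci-Ly18 with EZH2i. LGALS3BP rose with every treatment in Oci-Ly7, and ISG20 fell with EZH2i in 3 lines.

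IFI44L, chr1:78620268-78620447, plus strand: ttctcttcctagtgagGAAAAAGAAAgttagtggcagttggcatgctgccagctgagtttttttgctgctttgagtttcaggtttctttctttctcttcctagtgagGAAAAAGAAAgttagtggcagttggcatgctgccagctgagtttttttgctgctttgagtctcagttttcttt
IFIT1, chr10:89392443-89392622, plus strand: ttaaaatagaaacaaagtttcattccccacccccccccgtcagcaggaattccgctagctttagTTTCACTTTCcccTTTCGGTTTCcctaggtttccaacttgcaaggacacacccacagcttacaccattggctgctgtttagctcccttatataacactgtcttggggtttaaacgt
OAS3, chr12:112938294-112938473, plus strand: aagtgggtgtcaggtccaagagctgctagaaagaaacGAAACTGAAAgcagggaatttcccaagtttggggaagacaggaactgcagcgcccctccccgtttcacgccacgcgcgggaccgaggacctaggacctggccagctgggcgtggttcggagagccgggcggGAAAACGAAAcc
HERC5, chr4:88456939-88457118, plus strand: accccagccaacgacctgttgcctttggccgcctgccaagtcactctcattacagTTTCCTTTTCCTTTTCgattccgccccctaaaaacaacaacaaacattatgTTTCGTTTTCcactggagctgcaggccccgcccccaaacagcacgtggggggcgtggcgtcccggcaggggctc
LGALS3BP, chr17:78979924-78980103, minus strand: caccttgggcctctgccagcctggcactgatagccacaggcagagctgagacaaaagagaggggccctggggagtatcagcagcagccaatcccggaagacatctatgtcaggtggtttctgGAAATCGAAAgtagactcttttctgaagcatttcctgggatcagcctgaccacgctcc
ISG20, chr15:88638836-88639015, plus strand: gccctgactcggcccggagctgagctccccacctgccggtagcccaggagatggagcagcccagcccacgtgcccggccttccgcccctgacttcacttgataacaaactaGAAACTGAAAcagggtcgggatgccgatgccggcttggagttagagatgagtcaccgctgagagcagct

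The IFI44L window holds the same core, GAAAAAGAAA, in 2 places, IFIT1 and OAS3 hold 2 each, and LGALS3BP and ISG20 hold 1. HERC5 holds 3, of which 2 overlap. A match describes these letters and not binding. Among the genes with a promoter in the table, 21 of the 24 with the core and 8 of the 9 without it rose in Oci-Ly8 with the combination. In Oci-Ly18 10 of the 24 and 7 of the 9 fell with EZH2i.

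Library totals ran from 5174269 to 18845074 counts. Levels are given as CPM (counts scaled to a common library total), scaled with TMM, and a gene is called when edgeR's quasi-likelihood test gives an adjusted p (Benjamini-Hochberg over 17749 genes) under 0.05. Oci-Ly8 DMSO replicate 3 and Oci-Ly8 DOT1Li replicate 3, the latter also the shallowest library, had relatively few counts on long transcripts, and results in Oci-Ly8 that change without them are given both ways. The 7 B cell and germinal centre markers summed to between 1391 and 2552 CPM per library. Markers of other cell types that could supply interferon or carry these genes were low: 3 T cell markers reached at most 3.41 CPM, 3 NK markers 22.5, 3 monocyte markers 20.1, 3 plasmacytoid dendritic markers 3.19 and 2 fibroblast markers 15.6, each list with at least 1 library at 0. The 3 plasma cell markers ranged from 32.97 to 1087 CPM. DOT1L itself was called in none of the 12 comparisons with DMSO. EZH2 fell in Oci-Ly18 (-0.57), Oci-Ly8 (-0.15) and SUDHL6 (-0.50) and rose in Oci-Ly7 (0.17) with the combination on the log2 scale. Both drugs inhibit the enzymes, so these levels do not measure their effect.

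With DMSO alone the 4 lines differed in these genes, as in nearly all genes tested, and Oci-Ly7 was the line with the least expression for most of the 42. Its median over the 42 genes was 1.52 CPM, against 15.5 in Oci-Ly8, 11.1 in SUDHL6 and 9.64 in Oci-Ly18. In Oci-Ly7 20 genes lay under 1 CPM and 6 had 0 counts in all 3 DMSO libraries, namely HERC5, HERC6, IFI44L, PARP9, DTX3L and CMPK2. A count of 0 allows up to 3 counts over the group, or 0.0632 CPM, and covers counting error only. The same line had the highest DMSO level of the 4 for 5 genes: IFI16 (413 ± 11.6 CPM, SD, n = 3), BST2 (217 ± 7.61), ISG20 (146 ± 4.08), OAS1 (49.2 ± 1.58) and IFIH1 (47.1 ± 4.53). The DMSO level differed between the lines for 40 of the 42 genes. That share, 95.2%, was near the 93.1% of all genes tested, and IRF9 and IFI27 were the exceptions.

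Single genes spanned a wide range between lines. HERC5 (ENSG00000138646, chr4:88457119-88506163), the ligase that attaches ISG15 to new proteins, had 188, 196 and 167 CPM in the 3 SUDHL6 DMSO libraries and 47.05, 49.9 and 55.4 in Oci-Ly18. In Oci-Ly8 it had 0.445, 0.778 and 0.858 CPM, and the libraries of these 3 lines did not overlap. IFITM2, a membrane protein that blocks virus entry, had 89.99, 82.8 and 94.2 CPM in SUDHL6 and 58.8, 44.1 and 60.4 in Oci-Ly8, against 0.163, 0.398 and 0.0701 in Oci-Ly18. PARP14, an ADP-ribosyltransferase, was under 1 CPM in each Oci-Ly7 DMSO library (0.903, 0.494 and 0.404) and 171, 162 and 175 CPM in SUDHL6. Per kilobase of exon, BST2 (tetherin) led the genes in Oci-Ly7, Oci-Ly8 and Oci-Ly18 with 194, 165 and 38.3 CPM per kb, and IFITM2 led in SUDHL6 with 57.7.

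**Figure D1:**
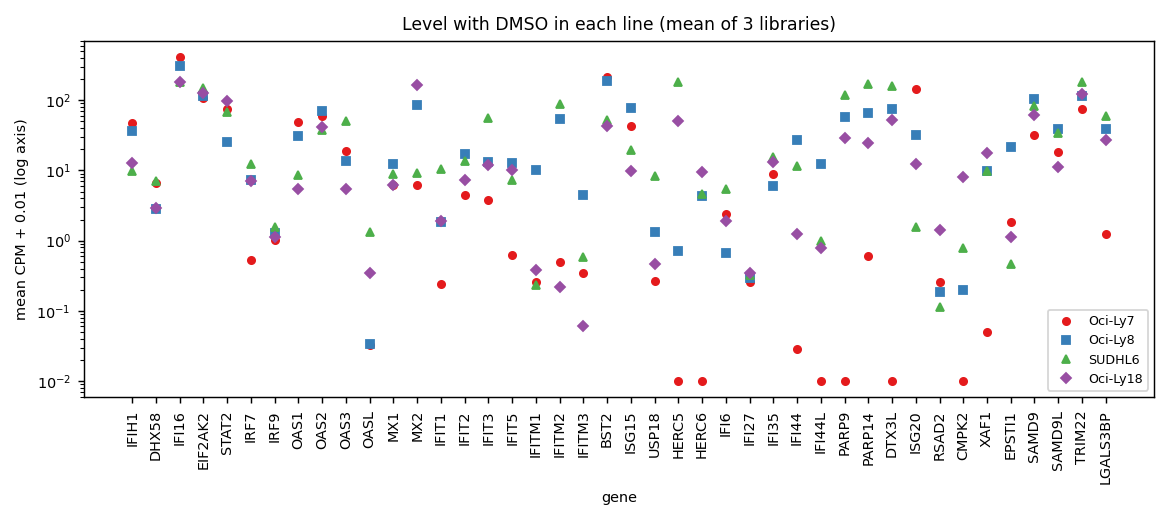
Mean DMSO level of each of the 42 genes in the 4 lines (3 libraries each; vertical axis CPM plus 0.01 on a log scale, horizontal axis genes). Oci-Ly7 has the lowest mark for 23 genes, 6 of them at 0, and the highest for 5.

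EZH2i and the combination raised most of these genes in Oci-Ly8, and EZH2i lowered 21 of the 42 in Oci-Ly18. In Oci-Ly8 the combination raised 37 of 42 genes and lowered 2, where 18.1% of all genes rose and 16.9% fell, and the median log2 fold change was 0.95 against 0 over all genes. EZH2i alone raised 26 and lowered 2 there (background 9.04% and 7.94%; median 0.49). DOT1Li raised 13 and lowered none by edgeR or DESeq2 (background 3.53% and 2.73%; median 0.41), with 2 lower at an unadjusted p under 0.05. Every background share given here and below is at an adjusted p under 0.05, and none was computed at an unadjusted p. Without the 2 Oci-Ly8 libraries named above the count for DOT1Li was 8, while those for EZH2i and the combination stayed at 26 and 37. In a fit of Oci-Ly8 alone DOT1Li raised 4, EZH2i 17 and the combination 34. The 2 lower genes were 1 with EZH2i without DMSO replicate 3 or any EZH2i replicate, and 1 with the combination without DMSO replicate 2 or Combo replicate 1.

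Markers of other cell types also moved in Oci-Ly8. With the combination 2 of the 3 plasmacytoid dendritic markers rose, LILRA4 and IL3RA, and the list summed to 1.69 to 3.19 CPM per library against 0.222 to 0.637 with DMSO, while CLEC4C had 0 counts in both groups. LILRA4 rose with DOT1Li as well, with a summed level of 1.20 to 2.55 CPM and IL3RA and CLEC4C at 0. Of 2 fibroblast markers COL1A1 rose with the combination (2.42 to 2.69 CPM summed, against 0 to 0.172) and with EZH2i (0.22 to 0.463), and DCN was at 0 in these 3 groups. Of 3 NK markers NKG7 rose with the combination (0.601 to 0.757 CPM summed, against 0 to 0.429), with NCAM1 at 0 in both groups and KLRD1 at 0 with the combination. Of 3 monocyte markers CSF1R rose with the combination, with overlapping sums (7.415 to 10.0 CPM against 8.84 to 9.415), and LYZ fell with EZH2i (4.405 to 5.32). Of 3 plasma cell markers JCHAIN fell with each treatment and TNFRSF17 rose with the combination, and the sum went from 117.5 to 180.9 CPM with DMSO to 32.97 to 36.27, with SDC1 at 0 in DMSO. No T cell marker was called. The part of these markers in the Oci-Ly8 results was not tested.

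In Oci-Ly18 the 21 genes that EZH2i lowered stood against 4 that it raised, where 9.04% of all genes fell and 13% rose, with a median of -0.48. DOT1Li raised 8 and lowered 2 (background 4.03% and 2.12%; median 0.28), and the combination raised 13 and lowered 11 (background 21.1% and 14%; median 0.14). The 2 lower genes with DOT1Li, HERC5 and OAS2, were both lost when any of 4 Oci-Ly18 libraries was left out (DMSO replicates 2 and 3, DOT1Li replicates 1 and 3) and 1 was lost without DOT1Li replicate 2. Without Oci-Ly18 Combo replicate 3 the combination lowered 7. DOT1Li raised 13 without the low count filter and 14 in a fit of Oci-Ly18 alone. Among other cell types' markers there, NCAM1 (1 of 3 NK markers; summed 11.7 to 12.7 CPM with DMSO, 16.15 to 17.8 with EZH2i and 17.5 to 22.5 with the combination) and COL1A1 (1 of 2 fibroblast markers; 0.796 to 1.55, 2.67 to 3.19 and 3.92 to 6.13) rose, with KLRD1, NKG7 and DCN at 0 in DMSO. CSF1R (1 of 3 monocyte markers; 0.159 to 0.3505 and 0.367 to 1.10 CPM) rose with the combination. Of 3 plasma cell markers, summed at 252 to 307 CPM with DMSO, SDC1 and TNFRSF17 rose with EZH2i (220.1 to 246), and SDC1 rose while JCHAIN fell with the combination (186 to 207) and with DOT1Li (172 to 208). Their part in the results was not tested.

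In Oci-Ly7 the combination raised 18 genes and lowered 5 (background 17.7% and 12.2%), and EZH2i raised 4 and lowered 4 (background 8.78% and 4.92%). DOT1Li raised 2 and lowered none by edgeR (background 1.72% and 1.17%). DESeq2 called 1 lower with DOT1Li, and 5 were lower at an unadjusted p under 0.05. The share raised by EZH2i, 9.52%, and the share lowered by the combination, 11.9%, were near those of all genes. The fitted median with the combination was 0.70, and 0.50 with the 6 genes at 0 in DMSO set to their bounds. Without Oci-Ly7 DMSO replicate 2 the combination raised 10 genes, and without Combo replicate 3 the fitted median was 0.41. The 4 raised by EZH2i were 1 without EZH2i replicate 2 and 2 without EZH2i replicate 3 or any DMSO replicate, and the 4 lowered were 2 without EZH2i replicate 2. The 2 raised by DOT1Li were 1 without DMSO or DOT1Li replicate 2 or 3, and 4 without the low count filter. In a fit of Oci-Ly7 alone DOT1Li lowered 3, the combination raised 13, and the fitted median with the combination was 0.19. That fit filtered low counts within Oci-Ly7, so its counts and median can cover fewer genes than the 0.70 does. The 18 raised in the main fit include genes with few counts, such as DTX3L (8 with the combination, 0 with DMSO). Markers of other cell types that rose there with the combination and with EZH2i were COL1A1 (1 of 2 fibroblast markers; summed 0.0674 to 0.274 CPM with DMSO, 0.793 to 1.09 with EZH2i and 2.255 to 3.86 with the combination, DCN at 0 in DMSO) and CSF1R (1 of 3 monocyte markers; 0.0695 to 0.202, 0.121 to 0.976 and 0.338 to 1.06, CSF1R at 0 in DMSO). Of 3 plasma cell markers TNFRSF17 fell with both and JCHAIN with the combination (998 to 1087 CPM with DMSO, 739 to 776 with EZH2i and 620.4 to 754 with the combination, SDC1 at 0 in all 3 groups). Their part in the results was not tested.

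In SUDHL6 the combination raised 9 and lowered 6, or 21.4% and 14.3% (background 22.6% and 16.8%; median 0.10). EZH2i raised 7 and lowered 2, or 16.7% and 4.76% (background 14% and 8.67%; median -0.051). The shares with the combination, and the share raised by EZH2i, were near those of all genes. DOT1Li raised 4 and lowered none by edgeR or DESeq2 (background 2.76% and 2.11%; median 0.11), and none was lower at an unadjusted p under 0.05. With the replicate number as a block the combination raised 10 and lowered 8, EZH2i 7 and 3, and DOT1Li 6 and 0. Without SUDHL6 DMSO replicate 1 EZH2i raised 3, and the 2 it lowered were 0 or 1 without DMSO replicate 1 or 3 or any EZH2i replicate. Without DMSO replicate 3 or Combo replicate 1 the combination lowered 3. In a fit of SUDHL6 alone DOT1Li raised 9, EZH2i lowered 6 and the combination lowered 10. Among other cell types' markers there, NKG7 (1 of 3 NK markers; summed 2.80 to 3.80 CPM with DMSO, 5.62 to 5.815 with EZH2i and 5.60 to 6.86 with the combination, KLRD1 at 0 in DMSO) rose with EZH2i and the combination. COL1A1 (1 of 2 fibroblast markers; 5.57 to 6.105 with DMSO, 9.07 to 12 with DOT1Li and 12.8 to 15.6 with the combination, DCN at 0 in DMSO) rose with DOT1Li and the combination. IL3RA rose with the combination (1 of 3 plasmacytoid dendritic markers; 0.417 to 0.572 and 0.733 to 1.10, CLEC4C at 0) and CD3E with EZH2i (1 of 3 T cell markers; at most 0.268, CD2 and CD3D at 0). Of 3 plasma cell markers, summed at 70.5 to 79.7 CPM with DMSO, SDC1 fell with EZH2i (64.2 to 79.9) and the combination (55.4 to 62.9), and JCHAIN rose with EZH2i. Their part in the results was not tested.

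**Figure D2:**
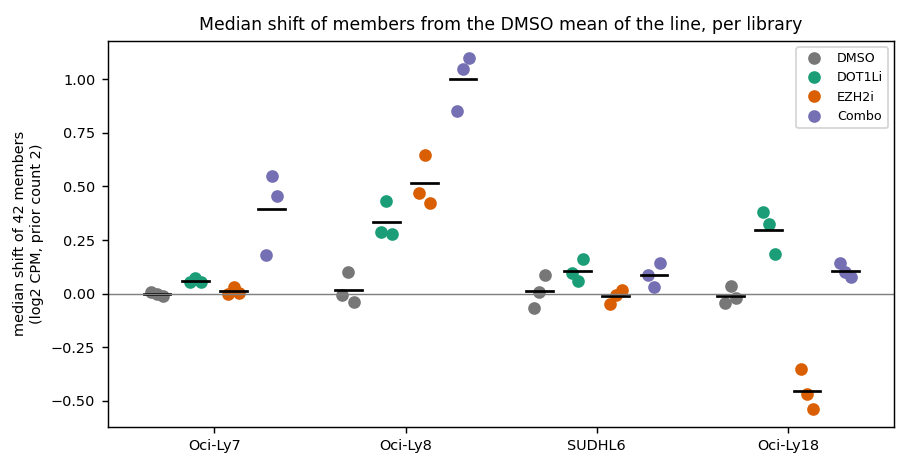
Median shift of the 42 genes in each library from the DMSO mean of its line (log2 CPM with a prior count of 2; points are libraries, bars are means of 3). The 3 Oci-Ly8 Combo libraries (0.85, 1.05 and 1.10) lie above all others, and the 3 Oci-Ly18 EZH2i libraries (-0.35, -0.47 and -0.54) lie below all others.

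**Figure D3:**
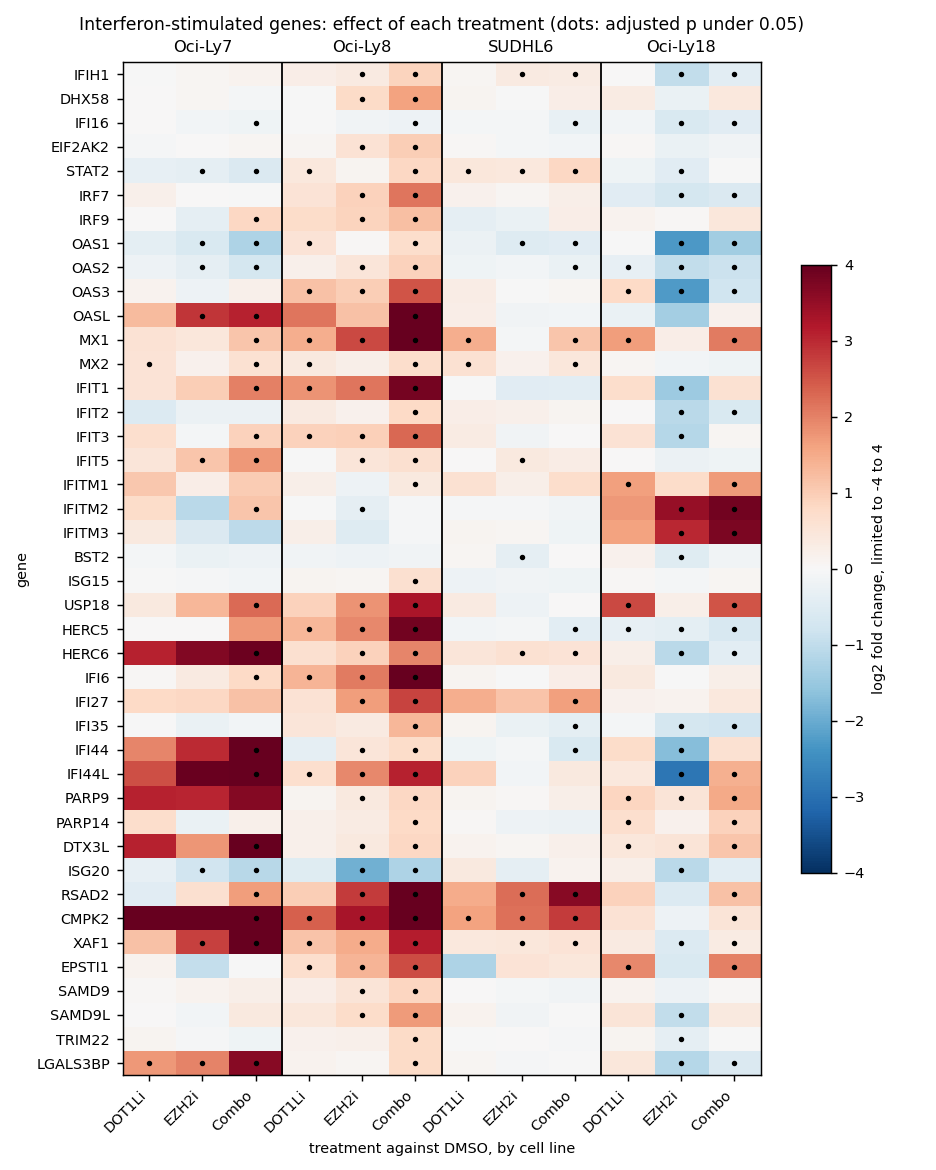
Log2 fold change of each of the 42 genes against DMSO, by line and treatment, with a dot where the adjusted p is under 0.05 (colour limited to -4 and 4). In Oci-Ly8 with the combination 37 genes are raised, and in Oci-Ly18 with EZH2i 21 are lowered; deep red in Oci-Ly7 marks genes with few or no counts in DMSO.

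Among the sensors, IFIH1 (MDA5), DHX58 (LGP2) and EIF2AK2 (PKR), which bind double-stranded RNA, rose in Oci-Ly8 with EZH2i and with the combination. IFIH1 went from 34.99, 41.7 and 33.98 CPM with DMSO to 64.5, 70.97 and 69.2 with the combination there (log2 fold change 0.88, SE 0.10, adjusted p = 1.16e-09). In Oci-Ly18 it had 10.9, 12.3 and 14.4 CPM with DMSO and 7.07, 5.93 and 6.196 with EZH2i, without overlap (log2 fold change -0.98, SE 0.14, adjusted p = 4.03e-07). EIF2AK2 had 116, 150.3 and 82.2 CPM with DMSO and 192, 248 and 251 with the combination in Oci-Ly8, again without overlap. DHX58 rose by 1.60 ± 0.19 and EIF2AK2 by 0.99 ± 0.13 (log2, SE) there and were called against DMSO in no other line.

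IFI16, a sensor of DNA, was the 1 gene of the 42 that fell with the combination in all 4 lines, and MX1, RSAD2, CMPK2 and XAF1 rose in all 4. The shares of all genes that fell or rose in all 4 lines were not computed. Only the share called in all 4 in any direction was, at 5.28%, so neither number can be set against a background. IFI16 was followed per library. Its levels were 172, 182 and 189 CPM with DMSO and 129, 131 and 132 with the combination in Oci-Ly18 (log2 fold change -0.47, SE 0.06, adjusted p = 1.66e-08), and EZH2i alone gave 114, 118 and 123. The falls were smaller in SUDHL6 (-0.31 ± 0.06), Oci-Ly8 (-0.19 ± 0.059) and Oci-Ly7 (-0.17 ± 0.058). The call in Oci-Ly8 was lost without a low count filter (adjusted p = 0.117), in a fit of that line alone (0.173) and without DMSO replicate 2 or Combo replicate 1 (0.0678 and 0.0904).

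Of the transcription factors, IRF7 (ENSG00000185507, chr11:612553-615983), the factor that amplifies interferon transcription, had 5.41, 7.29 and 9.27 CPM with DMSO, 13.4, 14.8 and 12.96 under EZH2i and 27.1, 31.8 and 37.3 with the combination in Oci-Ly8 (log2 fold change 2.14, SE 0.16, adjusted p = 2.65e-15). In Oci-Ly18 it fell with EZH2i (-0.71 ± 0.20) and with the combination (-0.58 ± 0.19), and in Oci-Ly7 it stayed under 1 CPM in every library. STAT2, a subunit of ISGF3, rose in SUDHL6 with each treatment: 63.4, 70.3 and 71.6 CPM with DMSO, 92.7, 97.3 and 89.1 with DOT1Li, 93.98, 92.5 and 87.6 under EZH2i and 120.1, 136 and 108 with the combination (log2 fold change 0.83, SE 0.11, adjusted p = 2.08e-08). It also rose with the combination in Oci-Ly8 (0.83 ± 0.12) but fell in Oci-Ly7 (-0.57 ± 0.11), where its 3 DMSO libraries (73.5, 77.4 and 76.9 CPM) lay above all 3 with the combination (48.6, 53.04 and 52.1). IRF9, the DNA-binding subunit, was scarce, with DMSO means of the lines from 0.9995 to 1.57 CPM. It rose with the combination in Oci-Ly7 (to 1.18, 1.99 and 2.13 CPM from 1.04, 0.878 and 1.08, 0.82 ± 0.28) and Oci-Ly8 (1.20 ± 0.27).

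The OAS genes encode enzymes that make 2′-5′ oligoadenylate and so activate RNase L. OAS3 (ENSG00000111331, chr12:112938051-112976460) had 16.1, 13.1 and 11.6 CPM with DMSO in Oci-Ly8, 35.6, 29.1 and 25.4 with DOT1Li, 25.3, 34.1 and 21.5 under EZH2i and 67.3, 79.01 and 85.3 with the combination (log2 fold change 2.501, SE 0.16, adjusted p = 3.17e-16). In Oci-Ly18 DOT1Li and EZH2i moved it in opposite directions: 5.22, 6.13 and 4.84 CPM with DMSO, 9.92, 9.16 and 8.62 with DOT1Li (0.78 ± 0.22, adjusted p = 0.0194) and 0.863, 1.26 and 1.17 with EZH2i (-2.26 ± 0.32, adjusted p = 6.79e-07). The combination gave 4.47, 2.98 and 1.799 there, between the single treatments. In Oci-Ly7 and SUDHL6 OAS3 was not called with any treatment.

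OAS1 and OAS2, next to OAS3 on chromosome 12, fell with the combination in Oci-Ly7, SUDHL6 and Oci-Ly18 and rose in Oci-Ly8. OAS1 had 48.8, 50.98 and 47.9 CPM with DMSO and 23.96, 19.03 and 20.1 with the combination in Oci-Ly7 (log2 fold change -1.22, SE 0.12, adjusted p = 1.22e-11), without overlap. Its fall in Oci-Ly18 was larger with EZH2i (-2.30 ± 0.25) than the value with the combination (-1.38 ± 0.22), and the difference of those treatments passed the test there (0.92 ± 0.30 for the combination against EZH2i, adjusted p = 0.0332). OAS2 in Oci-Ly18 had 39.5, 44.2 and 41.9 CPM with DMSO, 22.4, 21.7 and 18.9 with EZH2i (log2 fold change -0.999, SE 0.11, adjusted p = 2.52e-10) and 24.9, 20.03 and 23.3 with the combination. In Oci-Ly8 OAS2 went the other way, to 114, 142 and 142 from 78.1, 75.2 and 56.6 CPM (0.92 ± 0.094). OASL, a related protein without that enzyme activity, was under 1 CPM in each Oci-Ly8 library and rose there with the combination (0, 0.0707 and 0 CPM with DMSO, 0.806, 0.751 and 0.672 with the combination, adjusted p = 7.8e-06).

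MX1 and MX2, dynamin-like GTPases that block virus replication, were the genes most often raised by DOT1Li, in 3 lines each. MX1 (ENSG00000157601, chr21:41420020-41470071) had 9.19, 17.9 and 9.53 CPM with DMSO in Oci-Ly8, 33.3, 34.7 and 31.8 with DOT1Li, 68.8, 111 and 51.4 under EZH2i and 170.5, 256 and 223 with the combination (log2 fold change 4.14, SE 0.21, adjusted p = 4.42e-18). No library of a treatment overlapped those of DMSO, and all 3 with the combination lay above all others. In SUDHL6 DOT1Li gave 28.9, 24.99 and 20.4 CPM from 8.84, 9.18 and 9.05 (log2 fold change 1.45, SE 0.22, adjusted p = 5.98e-05), and EZH2i gave 7.49, 9.81 and 8.48, around the DMSO values. Oci-Ly18 had 6.36, 5.81 and 6.52 CPM with DMSO, 19.6, 22.2 and 17.6 with DOT1Li (1.67 ± 0.25) and 7.16, 7.04 and 8.15 with EZH2i (0.26 ± 0.28, not called). With the combination MX1 rose in all 4 lines, by 1.12 in Oci-Ly7, 4.14 in Oci-Ly8, 1.10 in SUDHL6 and 2.07 in Oci-Ly18 on the log2 scale. MX2 rose by 0.62 ± 0.14 with the combination in Oci-Ly7 and by 0.71 ± 0.093 in Oci-Ly8. In Oci-Ly18, where its DMSO level was highest (163 ± 2.62 CPM, SD, n = 3), it was not called with any treatment. The rise of MX2 with DOT1Li in Oci-Ly7 (0.54 ± 0.14, adjusted p = 0.0209) was lost without any 1 of 4 Oci-Ly7 libraries (DMSO replicates 2 and 3, DOT1Li replicates 2 and 3; adjusted p from 0.101 to 0.344) and in a fit of Oci-Ly7 alone (adjusted p = 0.0741).

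The IFIT proteins bind viral RNA and hinder its translation, and their 4 genes lie side by side on chromosome 10. IFIT1 (ENSG00000185745, chr10:89392546-89406487) rose in Oci-Ly8 with each treatment, from 1.41, 2.19 and 1.89 CPM with DMSO to 5.803, 7.34 and 5.804 with DOT1Li, 6.68, 11.01 and 6.65 under EZH2i and 18.5, 29.9 and 30.5 with the combination (log2 fold change 3.84, SE 0.25, adjusted p = 5.49e-17). In Oci-Ly18 EZH2i lowered it from 2.202, 1.83 and 1.68 to 0.345, 0.815 and 0.848 CPM (log2 fold change -1.45, SE 0.43, adjusted p = 0.0102), while DOT1Li (0.70 ± 0.32) and the combination (0.61 ± 0.31) were not called. In SUDHL6, with 9.79, 10.1 and 11.46 CPM in DMSO, IFIT1 had -0.47 ± 0.20 with EZH2i and -0.42 ± 0.20 with the combination. Neither passed the test (adjusted p = 0.0911 and 0.0992), and both did with the replicate number as a block (0.0234 and 0.0316), which pairs the libraries of that line.

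IFIT3 rose in Oci-Ly8 from 11.1, 13.9 and 13.9 CPM with DMSO to 50.5, 71.1 and 70.9 with the combination (2.31 ± 0.19). It fell in Oci-Ly18 (-1.13 ± 0.25 with EZH2i), and was also raised in Oci-Ly7 by the combination (0.94 ± 0.26). IFIT2 rose in Oci-Ly8 with the combination alone (0.80 ± 0.12) and fell in Oci-Ly18 with EZH2i and with the combination (-1.09 and -0.60). IFIT5 differed from its neighbours in Oci-Ly18, where no treatment changed it by a called amount, and it rose with EZH2i in the other lines, by 1.11 ± 0.32 in Oci-Ly7, 0.48 ± 0.13 in Oci-Ly8 and 0.39 ± 0.14 in SUDHL6. The value in Oci-Ly7 was no longer called without any 1 of 4 libraries of that line (DMSO replicates 2 and 3, EZH2i replicates 2 and 3; adjusted p from 0.0508 to 0.0882).

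Among the membrane factors, IFITM2 and IFITM3 rose in Oci-Ly18 with EZH2i, where 21 other genes fell. IFITM2 had 0.163, 0.398 and 0.0701 CPM with DMSO in Oci-Ly18, 2.502, 2.52 and 2.15 with EZH2i (log2 fold change 3.48, SE 0.45, adjusted p = 2.71e-08) and 2.63, 3.77 and 3.02 with the combination, and IFITM3 rose there too, to 0.367, 1.02 and 1.09 CPM from 0, 0.0796 and 0.0701. Both started from low DMSO levels. IFITM2 also rose with the combination in Oci-Ly7 (1.11 ± 0.40) and fell with EZH2i in Oci-Ly8 (-0.36 ± 0.11, adjusted p = 0.0197; 0.0778 without the 2 Oci-Ly8 libraries named above). That fall was also lost without any 1 of 5 Oci-Ly8 libraries (DMSO replicates 1 and 3, EZH2i replicates 1 to 3; adjusted p from 0.0523 to 0.145) and in a fit of that line alone (0.0767). IFITM1 had 0.245, 0.318 and 0.561 CPM with DMSO in Oci-Ly18 and 1.102, 1.26 and 1.41 with the combination. It rose there with DOT1Li (1.65 ± 0.38) and with the combination (1.69 ± 0.37). IFITM1 also rose in Oci-Ly8 with the combination (0.40 ± 0.15). The IFITM genes are near-identical neighbours, and how reads shared between them were counted is not given in the sources used here. BST2, which tethers budding virus to the membrane, was raised by no treatment in any line and fell with EZH2i in Oci-Ly18 (41.8, 44.8 and 42.1 to 33.5, 29.5 and 28.5 CPM, log2 fold change -0.50, SE 0.14, adjusted p = 0.0065). Its fall with EZH2i in SUDHL6 (-0.37 ± 0.13, adjusted p = 0.0342) was lost without DMSO replicate 3 (adjusted p = 0.206) or any 1 of the 3 EZH2i replicates (0.0595 to 0.135).

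ISG15 is a ubiquitin-like protein that is secreted and conjugated to other proteins. Its own gene was called once, in Oci-Ly8 with the combination: 53.4, 66.4 and 110.5 CPM with DMSO and 104, 119 and 138 with the combination, groups that overlap (log2 fold change 0.65, SE 0.19, adjusted p = 0.00617). USP18, the protease that removes ISG15 and restrains the receptor, had 1.56, 1.13 and 1.29 CPM with DMSO and 11.1, 12.2 and 14.7 with the combination in Oci-Ly8 (log2 fold change 3.25, SE 0.23, adjusted p = 6.7e-16). In Oci-Ly18 it rose with DOT1Li, from 0.326, 0.637 and 0.421 to 2.73, 4.13 and 1.84 CPM (log2 fold change 2.64, SE 0.35, adjusted p = 4.71e-07), and with the combination to 3.001, 3.14 and 1.99, while EZH2i left it at 0.518, 0.889 and 0.261. USP18 rose in Oci-Ly7 with the combination (2.25 ± 0.42) and was not called in SUDHL6.

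HERC5 went in opposite directions between lines. In Oci-Ly8 it had 0.445, 0.778 and 0.858 CPM with DMSO, 1.93, 1.31 and 2.37 with DOT1Li, 2.72, 3.12 and 2.14 under EZH2i and 10.7, 10.6 and 9.25 with the combination (log2 fold change 3.87, SE 0.23, adjusted p = 2.41e-17). In SUDHL6, where it is abundant, the combination gave 152, 140.2 and 122 CPM from 188, 196 and 167 (log2 fold change -0.41, SE 0.092, adjusted p = 0.000328), and in Oci-Ly18 39.01, 28.5 and 30.6 from 47.05, 49.9 and 55.4 (log2 fold change -0.63, SE 0.10, adjusted p = 3.49e-06). HERC6, its neighbour on chromosome 4, rose with the combination in Oci-Ly8 (1.96 ± 0.18) and SUDHL6 (0.55 ± 0.18) and fell in Oci-Ly18 (-0.43 ± 0.17). In Oci-Ly7 HERC6 had 6 counts over the 3 Combo libraries against 0 with DMSO, at least 1.89-fold higher.

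IFI44L (ENSG00000137959, chr1:78619902-78646145) and IFI44, adjacent on chromosome 1, encode cytoplasmic proteins induced by interferon. IFI44L had 10.97, 13.2 and 12.9 CPM with DMSO in Oci-Ly8, 20.4, 17.6 and 21.1 with DOT1Li, 43.03, 65.1 and 32.5 under EZH2i and 79.4, 114 and 121 with the combination (log2 fold change 3.08, SE 0.18, adjusted p = 7.27e-17). In Oci-Ly18 EZH2i alone lowered it, from 0.652, 0.557 and 1.12 to 0.0863, 0.148 and 0.0652 CPM (log2 fold change -2.90, SE 0.87, adjusted p = 0.0122). The combination raised it there, to 2.39, 1.89 and 2.06 CPM (log2 fold change 1.41, SE 0.43, adjusted p = 0.00896), above each DMSO library. In Oci-Ly7 it had 0 counts with DMSO and 0.113, 0.514 and 0.591 CPM with the combination, at least 6.30-fold higher where the floor is 3 counts summed over the DMSO libraries. IFI44 shared the fall with EZH2i in Oci-Ly18 (-1.70 ± 0.45) and the rise with the combination in Oci-Ly8 (0.72 ± 0.13), but fell with the combination in SUDHL6 (-0.61 ± 0.16). IFI6, an anti-apoptotic protein, rose in Oci-Ly8 (0.593, 0.354 and 1.03 CPM with DMSO, 7.82, 10.4 and 13.4 with the combination, log2 fold change 4.02, SE 0.30, adjusted p = 2.55e-15). IFI27 rose with the combination in Oci-Ly8 (to 1.85, 2.103 and 1.597 CPM from 0.222, 0.283 and 0.343, 2.69 ± 0.44) and SUDHL6 (1.63 ± 0.43), and IFI35 rose in Oci-Ly8 (1.32 ± 0.16) and fell in Oci-Ly18 (-0.75 ± 0.15) and SUDHL6 (-0.38 ± 0.14).

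PARP9, PARP14 and the ubiquitin ligase DTX3L, a partner of PARP9, all rose in Oci-Ly18 with DOT1Li and with the combination. PARP9 (ENSG00000138496, chr3:122527924-122564577) had 30.8, 28.3 and 26.6 CPM with DMSO, 57.2, 50.5 and 46.5 with DOT1Li (log2 fold change 0.85, SE 0.11, adjusted p = 1.05e-07), 39.9, 42.5 and 39 under EZH2i (log2 fold change 0.50, SE 0.11, adjusted p = 0.000324) and 84.1, 81.05 and 78.04 with the combination (log2 fold change 1.505, SE 0.10, adjusted p = 4.87e-16), with no overlap between DMSO and any treatment. DTX3L rose with all 3 treatments in that line, by 0.44, 0.52 and 1.11 with DOT1Li, EZH2i and the combination. PARP14 rose with DOT1Li (0.66 ± 0.14) and the combination (0.91 ± 0.14) but not by a called amount with EZH2i (0.18 ± 0.14). PARP9 and DTX3L overlap by 240 bases, and the strand setting of the counts is not given in the sources used here, so their values may share reads.

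Of the other effectors, XAF1 (ENSG00000132530, chr17:6755447-6775647), which promotes apoptosis by opposing XIAP, rose with the combination in all 4 lines. It had 10.4, 11.2 and 7.89 CPM with DMSO in Oci-Ly8, 19.2, 23.3 and 22.6 with DOT1Li, 26.6, 33.6 and 23.6 under EZH2i and 78.9, 91.2 and 91.7 with the combination (log2 fold change 3.14, SE 0.14, adjusted p = 1.45e-23), the smallest p of the 42 genes there. In Oci-Ly18 EZH2i lowered it, from 17.8, 19.5 and 15.1 to 11.47, 12.7 and 11.3 CPM (log2 fold change -0.55, SE 0.14, adjusted p = 0.00292), and the combination gave 24.3, 20.1 and 21 (log2 fold change 0.33, SE 0.13, adjusted p = 0.0494). In Oci-Ly7 it went from 0, 0.0549 and 0.0674 to 0.6202, 1.29 and 0.946 CPM, or from 2 counts to 47, a ratio of 22.2 with an exact 95% interval of 5.82 to 189 for counting error only (edgeR adjusted p = 2.24e-06). In SUDHL6 it rose by 0.56 ± 0.14.

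CMPK2, a mitochondrial nucleotide kinase, and RSAD2 (viperin), which makes a chain-terminating nucleotide, are neighbours that overlap by 1079 bases. The strand setting of the counts is not given in the sources used here, so their values may share reads. Both rose with the combination in all 4 lines. CMPK2 had the smallest p of the 42 genes in SUDHL6 with EZH2i and with the combination: 0.827, 0.596 and 0.886 CPM with DMSO, 2.26, 2.51 and 2.22 with DOT1Li, 3.37, 3.69 and 3.69 under EZH2i and 5.38, 6.07 and 4.64 with the combination (log2 fold change 2.79, SE 0.28, adjusted p = 3.81e-11). RSAD2 rose there too (3.64 ± 0.53) and in Oci-Ly8 from 0.148, 0.212 and 0.172 to 4.11, 4.51 and 5.72 CPM (log2 fold change 4.68, SE 0.42, adjusted p = 1.01e-12). In Oci-Ly7 CMPK2 had 17 counts with the combination and 0 with DMSO, at least 5.36-fold higher. In Oci-Ly18, where both were already expressed with DMSO, the rises were 0.50 ± 0.19 and 1.17 ± 0.29.

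LGALS3BP, a secreted glycoprotein that binds galectins, had the smallest p of the 42 genes in Oci-Ly7 with each treatment that raised it. It had 1.39, 1.43 and 0.876 CPM with DMSO, 2.68, 5.29 and 4.603 with DOT1Li (log2 fold change 1.74, SE 0.31, adjusted p = 0.00048), 4.97, 5.02 and 4.82 under EZH2i (log2 fold change 1.98, SE 0.30, adjusted p = 3.9e-06) and 9.87, 19.4 and 17.3 with the combination (log2 fold change 3.63, SE 0.25, adjusted p = 7.61e-15), each above every DMSO library. In Oci-Ly18 it fell with EZH2i, from 27.5, 31.1 and 22.5 to 11.2, 14.2 and 11.2 CPM (log2 fold change -1.15, SE 0.17, adjusted p = 1.08e-06), and with the combination (-0.56 ± 0.16). It was not called in SUDHL6.

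ISG20, an exonuclease that degrades viral RNA, fell with EZH2i in 3 lines. It had 149, 148 and 141 CPM with DMSO, 86.6, 86.02 and 85.8 with EZH2i (log2 fold change -0.76, SE 0.13, adjusted p = 3.04e-05) and 76.5, 65.6 and 62.4 with the combination in Oci-Ly7. In Oci-Ly8 EZH2i gave 9.77, 8.63 and 7.52 CPM from 34.3, 22.1 and 40.9 (log2 fold change -1.91, SE 0.17, adjusted p = 2.72e-11), while 26 other genes of the 42 rose. In Oci-Ly18 it went from 11.6, 13.1 and 11.7 to 5.87, 6.45 and 5.15 CPM (log2 fold change -1.06, SE 0.20, adjusted p = 7.37e-05), and in SUDHL6, at 1.399, 1.37 and 1.96 CPM with DMSO, no treatment was called.

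EPSTI1 rose in Oci-Ly8 from 24.6, 22.1 and 17.2 to 116, 143 and 128 CPM with the combination (log2 fold change 2.60, SE 0.16, adjusted p = 5.81e-17) and in Oci-Ly18 with DOT1Li to 4.26, 4.28 and 3.99 from 1.06, 1.27 and 0.981 (log2 fold change 1.92, SE 0.34, adjusted p = 0.000132). SAMD9 and SAMD9L, adjacent restriction factors on chromosome 7, rose in Oci-Ly8 with EZH2i and the combination (SAMD9L by 1.72 ± 0.16 with the latter), and SAMD9L fell with EZH2i in Oci-Ly18 (-0.97 ± 0.24). TRIM22, a ubiquitin ligase, rose with the combination in Oci-Ly8 (0.77 ± 0.087) and fell with EZH2i in Oci-Ly18 (-0.36 ± 0.088).

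**Figure D4:**
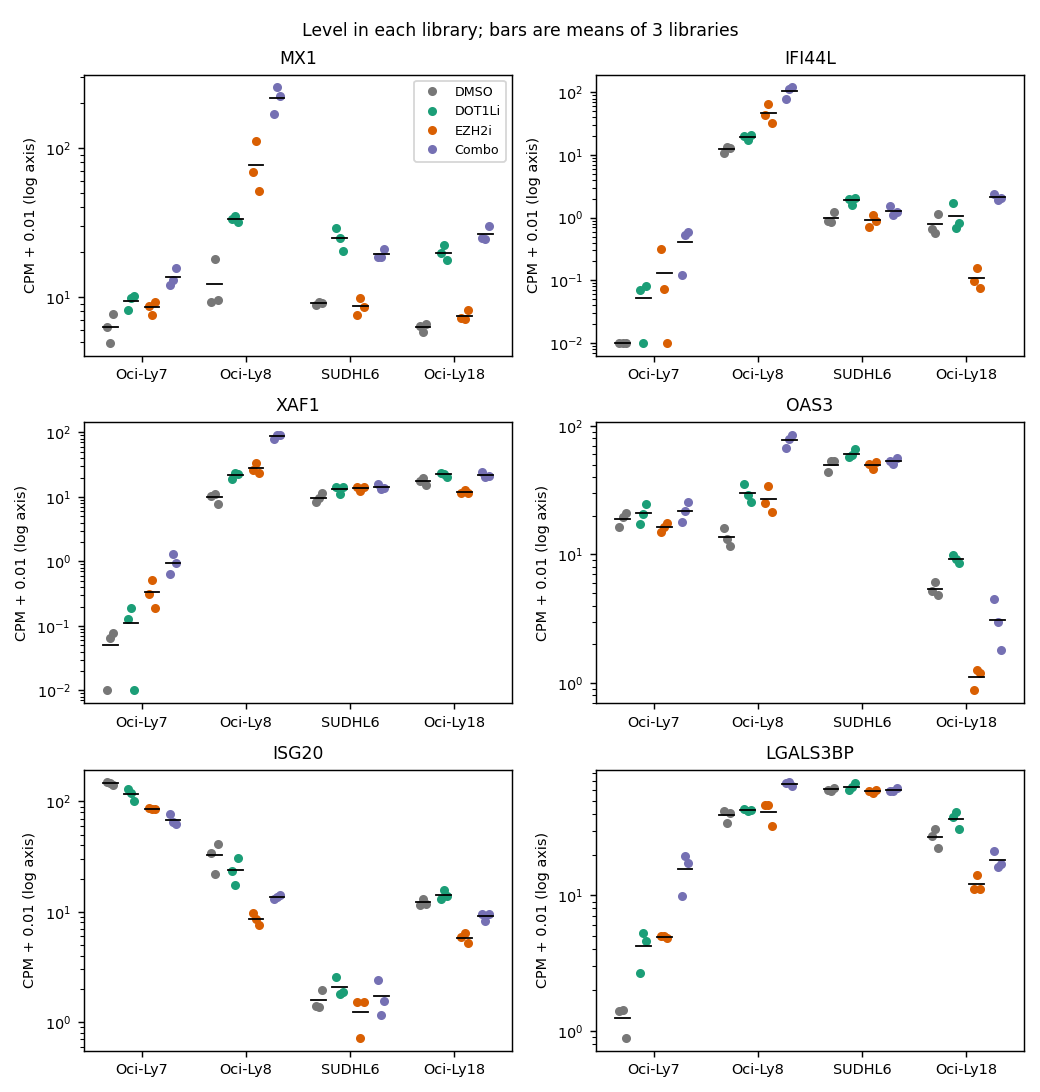
Level of 6 genes in each of the 48 libraries (vertical axes CPM plus 0.01 on log scales; points are libraries, bars are means of 3; groups within a line are DMSO, DOT1Li, EZH2i and Combo from left to right). MX1, IFI44L, XAF1 and OAS3 are higher with each treatment than with DMSO in Oci-Ly8, OAS3 and IFI44L drop with EZH2i in Oci-Ly18, ISG20 declines in Oci-Ly7, and LGALS3BP climbs in Oci-Ly7 from a DMSO mean of 1.23 CPM.

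Adding DOT1Li to EZH2i raised many of these genes in Oci-Ly8 and Oci-Ly18. Against EZH2i alone the combination raised 36 genes in Oci-Ly8 (background 9.82% higher and 7.61% lower) and 24 in Oci-Ly18 (background 7.69% and 5.1%). It lowered none in either by edgeR or DESeq2, with 0 and 1 lower at an unadjusted p under 0.05. XAF1 led in Oci-Ly8 (log2 fold change 1.65, SE 0.12, adjusted p = 2.22e-14) and PARP9 in Oci-Ly18 (log2 fold change 1.003, SE 0.10, adjusted p = 4e-10). In Oci-Ly18 these included IFI44L (4.31 ± 0.67), IFIT1 (2.05 ± 0.39) and OAS3 (1.48 ± 0.35), which EZH2i alone had lowered. In Oci-Ly7 the combination raised 7 and lowered 2 against EZH2i, or 16.7% and 4.76% (background 5.23% and 3.6%), led by LGALS3BP (1.64 ± 0.19) and OAS1 (-0.61 ± 0.12). In SUDHL6 3 rose and 3 fell (background 3.43% and 3.69%), led by MX1 (1.17 ± 0.22) and IFI16 (-0.24 ± 0.059). With the replicate block in SUDHL6 5 rose, BST2 and CMPK2 being added, and the 3 lower genes were 0 without Combo replicate 2 and 1 without Combo replicate 3. The 7 higher in Oci-Ly7 were 2 to 4 without EZH2i replicate 1 or 3 or Combo replicate 2 or 3, and the 2 lower were 1 without any of these.

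Against DOT1Li alone the combination raised 34 genes and lowered 2 in Oci-Ly8 (background 10.8% and 8.61%), with XAF1 (2.01 ± 0.13) and ISG20 (-0.75 ± 0.17) at the head of each direction. The 2 lower genes, ISG20 and IFI16, were 1 without the 2 Oci-Ly8 libraries named above, and 1 without DOT1Li replicate 2 or Combo replicate 1 or 3. In Oci-Ly18 the balance was the other way, with 4 raised and 12 lowered (background 12.7% and 8.9%). IFITM2 rose (log2 fold change 2.14, SE 0.31, adjusted p = 7.52e-07) and OAS3 fell (log2 fold change -1.57, SE 0.23, adjusted p = 1.95e-06). Oci-Ly7 had 8 raised and 5 lowered (background 11.3% and 6.76%), led by LGALS3BP (1.89 ± 0.20) and OAS1 (-0.84 ± 0.12), with 3 lowered without Combo replicate 3. SUDHL6 had 3 raised and 4 lowered, or 7.14% and 9.52% (background 14.3% and 11.2%), led by CMPK2 (1.20 ± 0.23) and IFI16 (-0.24 ± 0.06). With the replicate block 7 were lowered in SUDHL6, and without DOT1Li replicate 2 or 3 or Combo replicate 3 the number was 2. These comparisons share libraries with those against DMSO and are not independent of them.

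Few of the 42 genes had a called departure from the sum of the single effects. The contrast that takes the DOT1Li and EZH2i effects (log2) from that of the combination was called for 1 gene in Oci-Ly8, ISG20 (1.16, SE 0.24, adjusted p = 0.0316), and for 1 in Oci-Ly18, STAT2 (0.62, SE 0.15, adjusted p = 0.0464). STAT2 in Oci-Ly18 had 102, 87.8 and 104 CPM with DMSO, 95.3, 77.8 and 87.7 with DOT1Li, 76.8, 66.3 and 70.4 under EZH2i and 97.9, 95.4 and 98.8 with the combination, which lay within the DMSO range. Of all genes 0.0507% departed upward and 0.0507% downward in Oci-Ly8, and 0.208% and 0.152% in Oci-Ly18. In Oci-Ly7 and SUDHL6 edgeR and DESeq2 called none of the 42, where 0.0394% and 0% of genes departed upward and 0.0113% and 0.0225% downward. At an unadjusted p under 0.05 the departure was upward for 3 genes and downward for 0 in Oci-Ly7, 11 and 0 in Oci-Ly8, 1 and 3 in SUDHL6 and 15 and 1 in Oci-Ly18. The share of all genes at that unadjusted threshold was not computed, and the shares above are at an adjusted p, so they are no background for these counts. The ISG20 call was lost when any of 9 Oci-Ly8 libraries was left out (adjusted p from 0.0734 to 0.209), and the STAT2 call in 31 of 48 such refits and with DESeq2 size factors (adjusted p = 0.0606).

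Differences between the lines were tested directly. The effect of EZH2i differed between the 4 lines for 34 of 42 genes (background 24% of genes), that of the combination for 38 (43.8%) and that of DOT1Li for 13 (5.14%). For EZH2i OAS2 had the smallest p (adjusted p = 2.95e-10), and its effect in Oci-Ly8 exceeded that in Oci-Ly18 by 1.48 ± 0.14, adjusted p = 4.92e-11 (log2, SE). XAF1 (adjusted p = 4.09e-10) and LGALS3BP (2.32e-08) followed. Between Oci-Ly8 and Oci-Ly18 the EZH2i effect was higher in the former for 28 genes and lower for 3 (background 5.32% and 5.17%). Of the 26 genes that EZH2i raised in Oci-Ly8, 12 (46.2%) were among the 21 that it lowered in Oci-Ly18 (57.1% of those): IFIH1, IRF7, OAS2, OAS3, IFIT1, IFIT3, HERC5, HERC6, IFI44, IFI44L, XAF1 and SAMD9L. Over all 42 genes 50% fell in Oci-Ly18 and 61.9% rose in Oci-Ly8, so this overlap was near the shares of the whole list. The same overlap over all genes tested was not computed. These lines share no libraries.

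With the combination HERC5 differed most clearly (adjusted p = 3.29e-17): its effect in Oci-Ly8 was higher than in SUDHL6 by 4.29 ± 0.25, adjusted p = 3.41e-17, and than in Oci-Ly18 by 4.51 ± 0.26, adjusted p = 1.3e-17. XAF1 (3.44e-17) and OAS2 (3.98e-15) came next. IRF9, BST2, ISG15 and IFI27 were the 4 genes without a called difference between lines for the combination. With DOT1Li the leading genes were PARP9 (0.000362), whose effect in Oci-Ly18 stood above that in Oci-Ly8 (Oci-Ly8 minus Oci-Ly18 -0.75 ± 0.15, adjusted p = 0.00123), STAT2 (0.000443; Oci-Ly7 minus SUDHL6 -0.76 ± 0.15, adjusted p = 0.00392) and OAS1 (0.000991; Oci-Ly7 minus Oci-Ly8 -0.94 ± 0.17, adjusted p = 0.000848).

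Neighbouring genes did not always share a direction. Of the 42 genes 22 lie in 9 clusters with gaps under 100000 bases. With the combination in Oci-Ly7 OAS1 and OAS2 fell (-1.22 and -0.69) while OAS3, 4831 bases from OAS1, had 0.20 ± 0.16 and was not called. In Oci-Ly18 MX1 rose (2.07) while MX2, 10626 bases away, had -0.17 ± 0.091. In SUDHL6 HERC6 rose (0.55) and HERC5 fell (-0.41). PARP9 and DTX3L, which overlap, moved together in Oci-Ly18.

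Of the interferon ligands, IFNB1, IFNE, IFNL4 and IFNG have rows in the table, and none of these had enough reads to be tested. Other interferon ligands were not analysed here. IFNB1 reached at most a mean of 0.133 CPM, in Oci-Ly8 with DOT1Li, and had 0 counts in the other 3 lines. IFNG, the type II ligand, had 0 counts in Oci-Ly7 with DMSO and 0.507, 2.44 and 3.55 CPM with the combination. Of the receptor chains, IFNAR1 fell with the combination in Oci-Ly7 (-0.30 ± 0.078), SUDHL6 (-0.19 ± 0.079) and Oci-Ly18 (-0.25 ± 0.085), and IFNAR2 in Oci-Ly7 (-0.37 ± 0.10) and Oci-Ly18 (-0.40 ± 0.10). JAK1 rose with EZH2i in Oci-Ly8 (0.37 ± 0.093) and Oci-Ly18 (0.65 ± 0.093), and TYK2 rose with the combination in Oci-Ly8 (0.22 ± 0.069) and fell in Oci-Ly18 (-0.19 ± 0.069).

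Of 36 tested pathway genes the combination changed 17 in Oci-Ly7, 20 in Oci-Ly8, 14 in SUDHL6 and 20 in Oci-Ly18, where it changed 29.8%, 35%, 39.3% and 35% of all genes. EZH2i changed 5, 9, 6 (11 with the replicate block) and 17 (background 13.7%, 17%, 22.7% and 22%). DOT1Li changed 2, 5 (3 without the 2 Oci-Ly8 libraries named above), 2 and 4 (background 2.9%, 6.26%, 4.86% and 6.15%). The share of the 36 was near that of all genes in SUDHL6 with the combination and with DOT1Li and in Oci-Ly7 with EZH2i, and under it in SUDHL6 with EZH2i. In fits of each line alone the combination changed 10 in Oci-Ly8, EZH2i 8 in Oci-Ly7, 5 in Oci-Ly8 and 13 in SUDHL6, and DOT1Li 4, 2, 4 and 8. When 1 library was left out, the counts for DOT1Li ranged from 0 to 5 in Oci-Ly7, 2 to 7 in Oci-Ly8 and 2 to 5 in Oci-Ly18, and those for EZH2i from 3 to 6 in Oci-Ly7 (3 without EZH2i replicate 2) and 8 to 14 in Oci-Ly8 (14 without DMSO replicate 2). IRF1, which binds the same element, rose with the combination in Oci-Ly7 (0.96 ± 0.13) and Oci-Ly8 (0.81 ± 0.13) and fell in Oci-Ly18 (-0.36 ± 0.12). IRF3 fell in Oci-Ly18 with EZH2i (-0.33 ± 0.069) and was called in no other line. STAT3 rose with EZH2i in all 4 lines, from 0.20 in SUDHL6 to 0.70 in Oci-Ly18.

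The pathway lists held 5 genes that were called in all 4 lines with the combination, 13.9% of the 36, where 5.28% of all genes were. STING1, the adaptor of cytosolic DNA sensing, rose in each: 2.202, 2.31 and 1.61 CPM with DMSO and 5.08, 5.73 and 5.27 with the combination in Oci-Ly18 (log2 fold change 1.40, SE 0.20, adjusted p = 3.77e-07), 1.13 ± 0.16 in Oci-Ly8, 0.45 ± 0.17 in SUDHL6, and 0.169, 0.322 and 0.236 CPM from 0 counts in Oci-Ly7. It also rose with DOT1Li in the 3 lines where it is expressed, by 0.83, 0.84 and 1.40 in Oci-Ly8, SUDHL6 and Oci-Ly18. The kinase TBK1 fell in all 4 lines, with log2 fold changes of -0.27 in Oci-Ly7, -0.25 in Oci-Ly8, -0.33 in SUDHL6 and -0.54 in Oci-Ly18. IRF8, a B cell factor of the same family, fell in Oci-Ly7 (-1.36 ± 0.12), Oci-Ly8 (-0.99 ± 0.12) and Oci-Ly18 (-0.82 ± 0.12) and rose in SUDHL6 (1.20 ± 0.18). The phosphatase PTPN6 fell in Oci-Ly7 (-0.82 ± 0.14) and rose in the other 3, most in Oci-Ly18 (2.53 ± 0.18), and SAMHD1 fell in Oci-Ly18 (-0.46 ± 0.10) and rose in the others. CGAS, which makes the signal that STING1 receives, fell with the combination in Oci-Ly8 (-0.88 ± 0.15) and Oci-Ly18 (-1.44 ± 0.19) and was under 1 CPM in Oci-Ly7 and SUDHL6. SOCS1, a feedback inhibitor of JAK kinases, rose with the combination in Oci-Ly7 (0.86 ± 0.25), and DDX58 (RIG-I) rose with it in SUDHL6 (1.06 ± 0.28) and fell with EZH2i in Oci-Ly18 (-0.96 ± 0.31).

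**Figure D5:**
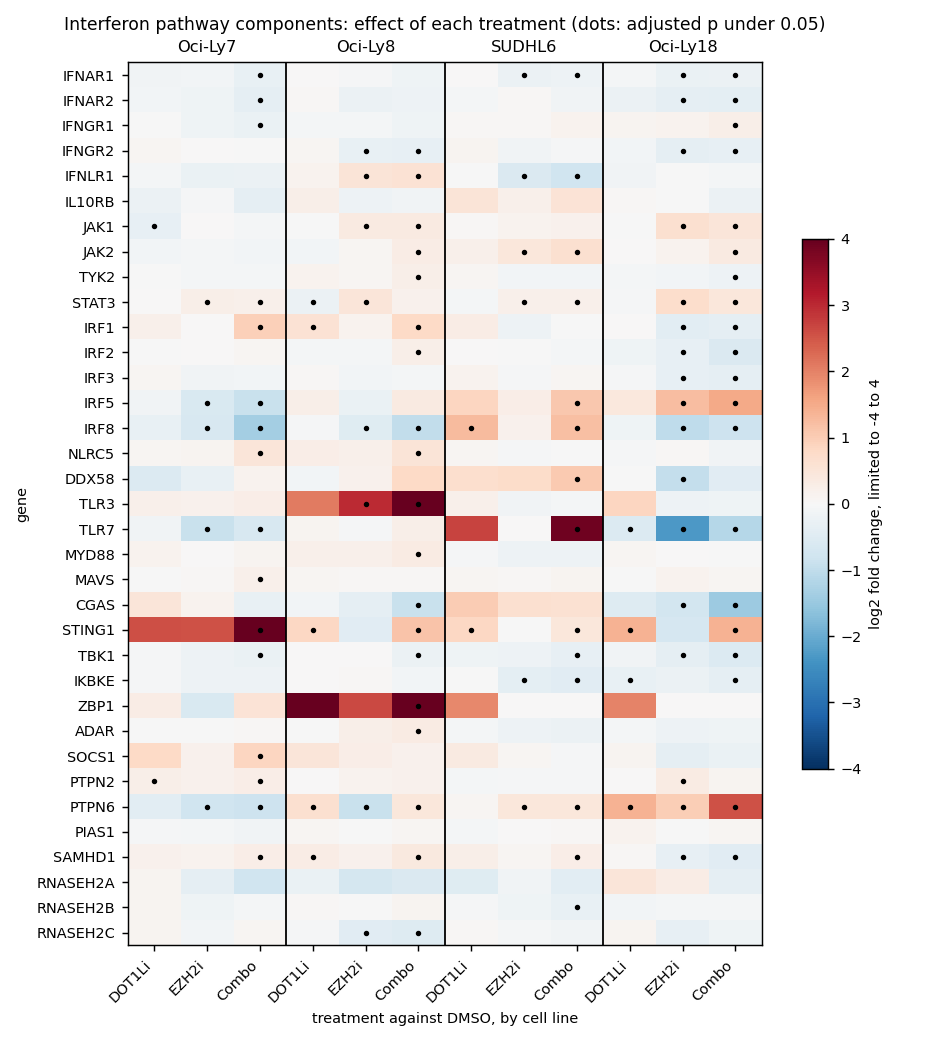
Log2 fold change against DMSO of tested pathway genes, by line and treatment, with a dot where the adjusted p is under 0.05 (colour limited to -4 and 4). STING1 and TBK1 carry a dot in all 4 Combo columns in 1 direction each; deep red marks genes near 0 counts in DMSO.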

How the data were processed

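RNA from 48 libraries (4 lines, 4 treatments, 3 replicates) was sequenced after polyA selection with a stranded kit, per the labels' protocols. The authors deposited whole-number counts per gene, not normalized, and all columns matched a sample. STAR, DESeq2 and GRCh38 (hg38) are named in the submitters' processing notes, while no source used here gives their versions, the counting program or its strand setting. Counts were fitted here in R 4.3.3 with edgeR 4.0.16 (limma 3.58.1): genes were kept with filterByExpr over 16 groups, scaled with TMM and tested with the quasi-likelihood test (robust), adjusted with Benjamini-Hochberg over 17749 genes and called under 0.05. All 48 libraries shared 1 fit with 32 residual degrees of freedom. The SE is the log2 fold change divided by the square root of F, and CPM values use TMM-scaled totals. Replicates of a group differed beyond sampling noise (lowest chi-square per degree of freedom 1.81 over 48 pairs). Regressing each library's log2 CPM on the log2 of exonic length (GENCODE) gave slopes of 0.723 and 0.758 in 2 Oci-Ly8 libraries and 0.821 or more in the other 46.

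The 42 genes and all lists were chosen with earlier results of these data known. Genes named with values were a panel of members across the roles (MX1, IFI44L, OAS3, XAF1 and others) and, for each comparison, those with the smallest adjusted p in each direction, pathway genes from a short list or called in all 4 lines for 1 treatment, and further members named by role. Same-numbered replicates deviated together in SUDHL6 (all correlations of deviations from group means at 0.185 or more), so blocked values are given there. Alternatives were DESeq2 1.42.0, its size factors, no filter, the block, each line alone, 2 Oci-Ly8 libraries left out and each library left out, where refits kept the genes and trended dispersions of the full fit. The edgeR fit was tried on simulated counts for 1 contrast only, Oci-Ly8 with the combination against DMSO. The simulation had the same spread for all genes, no difference between lines, and changes only in genes well above 0 counts. Other contrasts, the tests between lines, the block and DESeq2 were not tried in this way. Promoters came from RefSeq (GRCh38.p14), and gene coordinates are those of the deposited table. Counts over the pathway lists include 1 gene that is not reported here.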

Additional observations from a re-analysis of the deposited data

Results flagged for a closer look

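The effect of a treatment differed between the 4 lines, by an F test of the difference itself, for 13 of the 42 genes with DOT1Li, 34 with EZH2i and 38 with the combination, where 5.14%, 24% and 43.8% of all genes did (edgeR quasi-likelihood test, adjusted p under 0.05). With DOT1Li the smallest adjusted p-values were those of PARP9 (0.000362), STAT2 (0.000443) and OAS1 (0.000992). With EZH2i they were those of OAS2 (2.95e-10), XAF1 (4.09e-10) and LGALS3BP (2.32e-08). With the combination they were those of HERC5 (3.29e-17), XAF1 (3.44e-17) and OAS2 (3.98e-15). Without the filter on low counts the number for DOT1Li was 20.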

How the results depend on the processing

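Of the 72 counts and medians recomputed, the median for Oci-Ly7 with EZH2i, which has no test, changed sign under some alternatives. The values that moved (counts of genes by over 1.5 times) are given below in brackets as the number higher, lower, called or in the pathway lists, or the median log2 fold change, and the cause was not tested. Fits of each line alone filtered low counts within that line, so their counts and medians can cover fewer genes than the main fit. Among the 67 single gene values, the fold changes kept their direction in every alternative. They were chosen for a small adjusted p, so a kept direction is little check on them. The remaining single gene values are adjusted p-values of differences between lines. These have no direction and were not fitted in each line alone. With 1 library left out 73 of 3216 single gene values lost their call. Each value was refitted without each of the 48 libraries, and for most values most of these lay outside the comparison. That share therefore does not measure how stable a call is within its own libraries. DESeq2 lost HERC5 in Oci-Ly18 with DOT1Li (adjusted p = 0.0503), as edgeR on DESeq2 size factors lost OAS2 there (0.0521). Genes near 0 counts in Oci-Ly7 limit the fold changes there, and the shallowest library limits Oci-Ly8 DOT1Li. Replicate numbers pair the libraries of SUDHL6, where every same-numbered pair of groups correlated at 0.185 or more. In the other lines the lowest values were 0.0542, 0.0586 and 0.0911, so not every pair there was over 0.1, the level taken here for pairing, and the block is reported for all lines. With the block DOT1Li raised 19 genes in Oci-Ly8 in place of 13. Against DMSO the block changed no other call in SUDHL6 than those of IFIT1 given above, of IFI27 and XAF1 with DOT1Li (adjusted p = 0.0303 and 0.0188) and of PARP9 and PARP14 with the combination (0.00402 and 0.0423).

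Without the filter on low counts values moved for Oci-Ly7 with DOT1Li against DMSO (higher 2 became 4, lower 0 became 3, pathway 2 became 4), Oci-Ly8 with DOT1Li against DMSO (lower 0 became 1), Oci-Ly8 with the combination against DMSO (lower 2 became 1), Oci-Ly18 with DOT1Li against DMSO (higher 8 became 13). Further values moved for Oci-Ly7 with the combination against EZH2i (higher 7 became 11), Oci-Ly8 with the combination against DOT1Li (lower 2 became 1), SUDHL6 with the combination against DOT1Li (lower 4 became 7), Oci-Ly8 in the departure from additive effects (called 1 became 3). Others were those for Oci-Ly18 in the departure from additive effects (called 1 became 3), the DOT1Li effect between lines (differing 13 became 20). With edgeR on DESeq2 size factors values moved for Oci-Ly7 with DOT1Li against DMSO (lower 0 became 1), Oci-Ly18 with DOT1Li against DMSO (lower 2 became 1, pathway 4 became 2), Oci-Ly8 with the combination against DOT1Li (lower 2 became 1), Oci-Ly18 in the departure from additive effects (called 1 became 0). With DESeq2 values moved for Oci-Ly7 with DOT1Li against DMSO (lower 0 became 1), Oci-Ly18 with DOT1Li against DMSO (lower 2 became 1), SUDHL6 with the combination against EZH2i (higher 3 became 5), Oci-Ly18 in the departure from additive effects (called 1 became 2). With the replicate block values moved for Oci-Ly7 with DOT1Li against DMSO (lower 0 became 4, median 0.18 became 0.19, pathway 2 became 5), Oci-Ly7 with EZH2i against DMSO (pathway 5 became 8), Oci-Ly8 with DOT1Li against DMSO (lower 0 became 1), Oci-Ly8 with EZH2i against DMSO (pathway 9 became 14). Further values moved for SUDHL6 with EZH2i against DMSO (pathway 6 became 11), Oci-Ly18 with DOT1Li against DMSO (higher 8 became 13), Oci-Ly7 with the combination against EZH2i (higher 7 became 12), SUDHL6 with the combination against DOT1Li (lower 4 became 7). Others were those for SUDHL6 with the combination against EZH2i (higher 3 became 5), Oci-Ly18 with the combination against EZH2i (lower 0 became 1), Oci-Ly8 in the departure from additive effects (called 1 became 2), Oci-Ly18 in the departure from additive effects (called 1 became 2). In fits of each line alone values moved for Oci-Ly7 with DOT1Li against DMSO (lower 0 became 3, median 0.18 became 0.035, pathway 2 became 4), Oci-Ly7 with EZH2i against DMSO (median 0.048 became -0.051, pathway 5 became 8), Oci-Ly7 with the combination against DMSO (median 0.70 became 0.19), Oci-Ly8 with DOT1Li against DMSO (higher 13 became 4, pathway 5 became 2). Further values moved for Oci-Ly8 with EZH2i against DMSO (higher 26 became 17, lower 2 became 1, pathway 9 became 5), Oci-Ly8 with the combination against DMSO (lower 2 became 1, pathway 20 became 10), SUDHL6 with DOT1Li against DMSO (higher 4 became 9, pathway 2 became 4), SUDHL6 with EZH2i against DMSO (lower 2 became 6, pathway 6 became 13). Others were those for SUDHL6 with the combination against DMSO (lower 6 became 10), Oci-Ly18 with DOT1Li against DMSO (higher 8 became 14, pathway 4 became 8), Oci-Ly18 with the combination against DMSO (median 0.14 became 0.064), Oci-Ly8 with the combination against DOT1Li (lower 2 became 1). The remaining ones included SUDHL6 with the combination against DOT1Li (lower 4 became 12), SUDHL6 with the combination against EZH2i (higher 3 became 6), Oci-Ly8 in the departure from additive effects (called 1 became 0), Oci-Ly18 in the departure from additive effects (called 1 became 5). Without the 2 Oci-Ly8 libraries that had few counts on long transcripts values moved for Oci-Ly7 with DOT1Li against DMSO (lower 0 became 2), Oci-Ly7 with EZH2i against DMSO (pathway 5 became 9), Oci-Ly8 with DOT1Li against DMSO (higher 13 became 8, pathway 5 became 3), Oci-Ly8 with EZH2i against DMSO (lower 2 became 1). Further values moved for SUDHL6 with EZH2i against DMSO (pathway 6 became 11), Oci-Ly8 with the combination against DOT1Li (lower 2 became 1), SUDHL6 with the combination against EZH2i (higher 3 became 5), Oci-Ly18 in the departure from additive effects (called 1 became 2).

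When each library was left out in turn, ranges were those for Oci-Ly7 with DOT1Li against DMSO (higher 1 to 2, lower 0 to 2, median 0.053 to 0.27, pathway 0 to 5), Oci-Ly7 with EZH2i against DMSO (higher 1 to 6, lower 2 to 5, median -0.013 to 0.10, pathway 3 to 6), Oci-Ly7 with the combination against DMSO (higher 10 to 20, median 0.41 to 0.79), Oci-Ly8 with DOT1Li against DMSO (lower 0 to 1, pathway 2 to 7). Further values moved for Oci-Ly8 with EZH2i against DMSO (lower 1 to 3, median 0.44 to 0.62, pathway 8 to 14), Oci-Ly8 with the combination against DMSO (lower 1 to 2, median 0.89 to 1.13), SUDHL6 with DOT1Li against DMSO (median 0.071 to 0.17), SUDHL6 with EZH2i against DMSO (higher 3 to 8, lower 0 to 2, median -0.065 to -0.0027). Others were those for SUDHL6 with the combination against DMSO (lower 3 to 7, median 0.025 to 0.14), Oci-Ly18 with DOT1Li against DMSO (lower 0 to 2, median 0.17 to 0.40, pathway 2 to 5), Oci-Ly18 with the combination against DMSO (lower 7 to 12, median 0.11 to 0.18), Oci-Ly7 with the combination against DOT1Li (lower 3 to 6). The remaining ones included Oci-Ly7 with the combination against EZH2i (higher 2 to 9, lower 1 to 3), Oci-Ly8 with the combination against DOT1Li (lower 1 to 2), SUDHL6 with the combination against DOT1Li (lower 2 to 5), SUDHL6 with the combination against EZH2i (higher 2 to 5, lower 0 to 3). Added to these were Oci-Ly18 with the combination against EZH2i (lower 0 to 1), Oci-Ly8 in the departure from additive effects (called 0 to 1), Oci-Ly18 in the departure from additive effects (called 0 to 2).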
